A study of Mus musculus with 49 samples.

Results

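Fank1, Dhx32, Gas1, Gjb2, Hmcn1, Kitl, Hhip and Msc were followed in RNA-seq of mouse embryonic stem (ES) cells. They were chosen from the time course of these data because the difference between cells without and with Trim24 was larger at 12 h than at 2 h of p53 activation, and they are 8 of the 20489 genes in the 4 expression tables, with a row in each. Since that contrast chose them, its values are given below as a description and no test is drawn from it. The rule of the choice did not use libraries outside the time course, and tests are given for those. Earlier results of these data were known when the members were named, so that these tests are not fully independent of the choice.

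All cells were of the TC-1 line (129S6/SvEvTac). In the dTrim24 line an FKBP12(F36V) degron and a V5 tag stand at the C terminus of both endogenous Trim24 alleles, so that dTAG13 (500 nM) removes the protein, the edited lines were grown from single picked clones, and doxorubicin (1 µM), which damages DNA, was used to activate p53. The time course held DegrAct cells (dTAG13 and doxorubicin) and Act cells (doxorubicin) at 2, 4, 8 and 12 h, and untreated cells at 0 h, with 3 libraries each. The RING-domain experiment compared, at 4 h, LigNull Act cells, in which cysteines of the Trim24 RING domain are changed to alanine and which received doxorubicin, with DegrAct and Act cells, 4 libraries each. Uninduced dTrim24 cells were compared with and without dTAG13 (Degr, 4 h, and Unt, 3 libraries each), and wild-type cells with and without 4 h of doxorubicin (wt Act and wt Unt, 2 libraries each). The LigNull cells carry the degron tag according to their label, which gives no dTAG13 for them, and they are a separately edited line, so that the effect of the edited line and that of the RING mutation cannot be told apart. The treatment tag of the Unt libraries names activated p53, whereas their titles call them untreated. They were taken as untreated, and their Mdm2 level, 178 to 189 CPM (reads scaled to the size of the library), lay near that of the untreated cells at 0 h, 177 to 186 CPM, and under the 862 to 910 CPM of Act cells of the RING-domain experiment. The replicates are described as biological, with no further detail on separate cultures.

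p53 is a transcription factor that binds response elements in DNA after stress and raises genes such as Mdm2, which encodes its own ubiquitin ligase, and Cdkn1a, which encodes a cell cycle inhibitor. Trim24 is a chromatin protein of the tripartite motif family. It has an N-terminal RING domain, typical of ubiquitin ligases, and a C-terminal PHD finger and bromodomain that read histone H3 tails. The 8 genes belong to different families, and Gas1 and Hhip both act in Hedgehog signalling. Fank1 encodes a fibronectin type III and ankyrin repeat protein known from male germ cells, Dhx32 a DEAH-box RNA helicase-like protein, Gas1 a membrane-anchored Hedgehog co-receptor first known from growth-arrested cells, and Hhip a cell surface protein that binds and withholds Hedgehog ligands. Kitl encodes stem cell factor, the ligand of the Kit receptor, Gjb2 the gap junction protein connexin 26, Msc the bHLH repressor musculin, and Hmcn1 the extracellular matrix protein hemicentin 1.

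The libraries held 14422098 to 35185256 reads over genes (median 19520026), with 14422098 to 25194595 in the time course and 16669410 to 33893100 in the RING-domain experiment. Pluripotency markers (6 of 6 measured) summed to 4100 to 4140 CPM in untreated cells at 0 h and to 2090 to 2460 CPM in all groups of the RING-domain experiment, and in the time course at 12 h to 955 to 1050 CPM in DegrAct cells and to 925 to 1030 CPM in Act cells. Trim24 mRNA was no lower in DegrAct than in Act cells at any time (77.4 ± 3.28 and 69.7 ± 2.00 CPM at 12 h, SD, n = 3 each), so that the mRNA does not check the loss of the protein. Levels in bulk samples cannot tell fewer cells of a type from less RNA per cell. Levels are given as CPM, the reads of a gene over the effective library size, without a prior count. Differences are on the log2 scale of the deposited values, which hold a prior count of 8. This prior understates the change of low genes. For a gene that was low at 2 h, such as Gjb2, it can thereby overstate the growth of the difference between 2 and 12 h.

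Fank1 and Dhx32 lie side by side. On GRCm38, Fank1 spans chr7:133776861-133881532 on the plus strand and Dhx32 chr7:133720942-133782726 on the minus strand, so that the gene bodies overlap by 5866 bases, head to head, with 0 shared exon bases. RefSeq places one Dhx32 start 88 bases before that of Fank1, on the other strand, and the windows from 250 bases before to 50 bases after each start share 187 bases. Both windows are shown because these neighbours moved together. In the Fank1 window the capitals mark the bases shared with the Dhx32 window. In the others they mark matches to a p53 binding motif, a decamer that reads the same on both strands, so that the search covers both. They are either a full response element or a single decamer without mismatch. A full element held 2 decamers with at most 1 base between them and at most 3 mismatches in all. The core C and G of each decamer had to match. Starts are counted in bases from the 5′ end of each window (RefSeq, GRCm38.p6).
Fank1, chr7:133776641-133776940, plus strand: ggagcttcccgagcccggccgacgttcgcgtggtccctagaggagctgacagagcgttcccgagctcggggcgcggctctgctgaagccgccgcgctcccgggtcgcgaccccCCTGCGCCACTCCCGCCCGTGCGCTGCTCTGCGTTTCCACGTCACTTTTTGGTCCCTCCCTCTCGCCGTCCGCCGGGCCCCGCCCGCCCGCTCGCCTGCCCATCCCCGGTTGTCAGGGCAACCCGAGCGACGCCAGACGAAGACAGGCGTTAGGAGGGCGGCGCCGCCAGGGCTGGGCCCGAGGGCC
Dhx32, head-to-head start, chr7:133776754-133777053, minus strand: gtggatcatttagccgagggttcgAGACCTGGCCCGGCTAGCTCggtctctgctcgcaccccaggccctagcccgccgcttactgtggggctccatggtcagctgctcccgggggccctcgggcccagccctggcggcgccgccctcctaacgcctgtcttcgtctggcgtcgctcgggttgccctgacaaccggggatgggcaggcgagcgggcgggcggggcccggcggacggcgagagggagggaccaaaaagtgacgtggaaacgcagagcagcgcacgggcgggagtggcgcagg
Dhx32, outermost start, chr7:133782736-133783035, minus strand: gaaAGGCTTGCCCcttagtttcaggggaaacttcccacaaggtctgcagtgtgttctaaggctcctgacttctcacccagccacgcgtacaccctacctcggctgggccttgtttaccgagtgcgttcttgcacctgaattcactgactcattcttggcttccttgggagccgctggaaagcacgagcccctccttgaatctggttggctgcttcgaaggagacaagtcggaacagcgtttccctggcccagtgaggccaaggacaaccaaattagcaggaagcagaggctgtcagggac
Gas1, chr13:60177486-60177785, minus strand: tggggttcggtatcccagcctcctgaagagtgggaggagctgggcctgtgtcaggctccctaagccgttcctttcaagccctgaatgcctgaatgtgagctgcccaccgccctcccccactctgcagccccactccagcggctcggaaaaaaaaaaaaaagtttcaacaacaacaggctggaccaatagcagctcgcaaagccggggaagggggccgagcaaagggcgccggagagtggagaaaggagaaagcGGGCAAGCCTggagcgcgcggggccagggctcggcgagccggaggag

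A full element was found in 1 of the 9 windows of the members, the head-to-head window of Dhx32 (from base 25, 3 mismatches), against 2.82% of all 32851 promoter windows. A single decamer without mismatch was found in the outermost Dhx32 window (from base 4) and in the Gas1 window (from base 254), against 8.36% of all windows. A match is a run of letters and not a site at which binding was measured here. Promoter windows were found for 7 of the 8 genes. The Fank1 window holds 41 CpG dinucleotides and those of Gas1, Hhip, Kitl, Gjb2 and Hmcn1 hold 17, 30, 28, 27 and 19, against a median of 7 over all windows. Of the Dhx32 windows, the head-to-head one holds 32, the outermost one 10 and the remaining one 4.

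**Figure D1:**
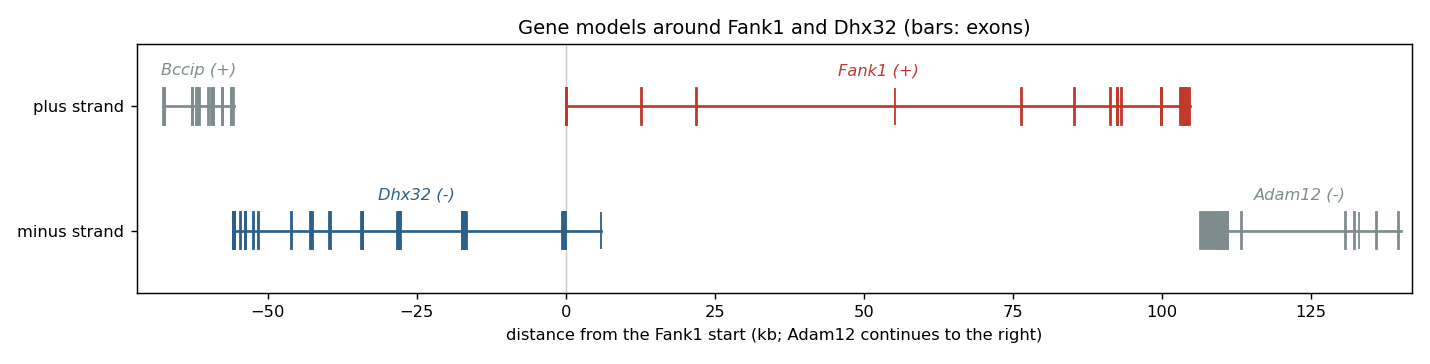
Gene models around Fank1 and Dhx32, drawn by distance from the annotated Fank1 start in kb (GENCODE M21), with genes of the plus strand above and of the minus strand below and exons as bars. Dhx32 reaches 5866 bases into the Fank1 gene body on the other strand, and the 3′ end of Adam12 lies 1666 bases beyond the end of Fank1.

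The other genes stand apart from each other. Gas1 lies at chr13:60174405-60177365 (minus strand), Hhip at chr8:79965851-80058006 (minus), Kitl at chr10:100015630-100100416 (plus), Gjb2 at chr14:57098600-57104702 (minus), Msc at chr1:14753346-14755992 (minus) and Hmcn1 at chr1:150562524-150993435 (minus). Dhx32 also shares 204 exon bases (4.89% of its exons) with Bccip on its other side. The counting, by featureCounts with default settings, did not use strand, so that reads of these overlapping exons cannot be told apart by strand.

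In the time course the 8 genes took 2 forms. Fank1, Dhx32, Gas1, Gjb2, Hmcn1 and Kitl were higher at 12 h than at 0 h in every library of DegrAct and Act cells, and further up without Trim24. Hhip and Msc were lower at 12 h than at 0 h in every Act library, and stood above their 0 h level in every DegrAct library. At 12 h against 0 h, 5 members were higher and 2 lower in Act cells, beside 30.3% and 22.9% of all genes, and 7 were higher in DegrAct cells, beside 30.7%. The log2 difference between DegrAct and Act cells had a median over the members of 0.11 at 2 h, 1.11 at 4 h, 2.23 at 8 h and 2.65 at 12 h, beside medians over all genes tested of −0.01, 0.00, −0.04 and −0.02. At 2, 4, 8 and 12 h, 0, 6, 8 and 8 members were higher by the thresholds used throughout (adjusted p under 0.01 and a log2 difference of at least 0.75), beside 0.325%, 1%, 1.14% and 2.7% of all genes, and since these libraries chose the members nothing is read from the counts.

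**Figure D2:**
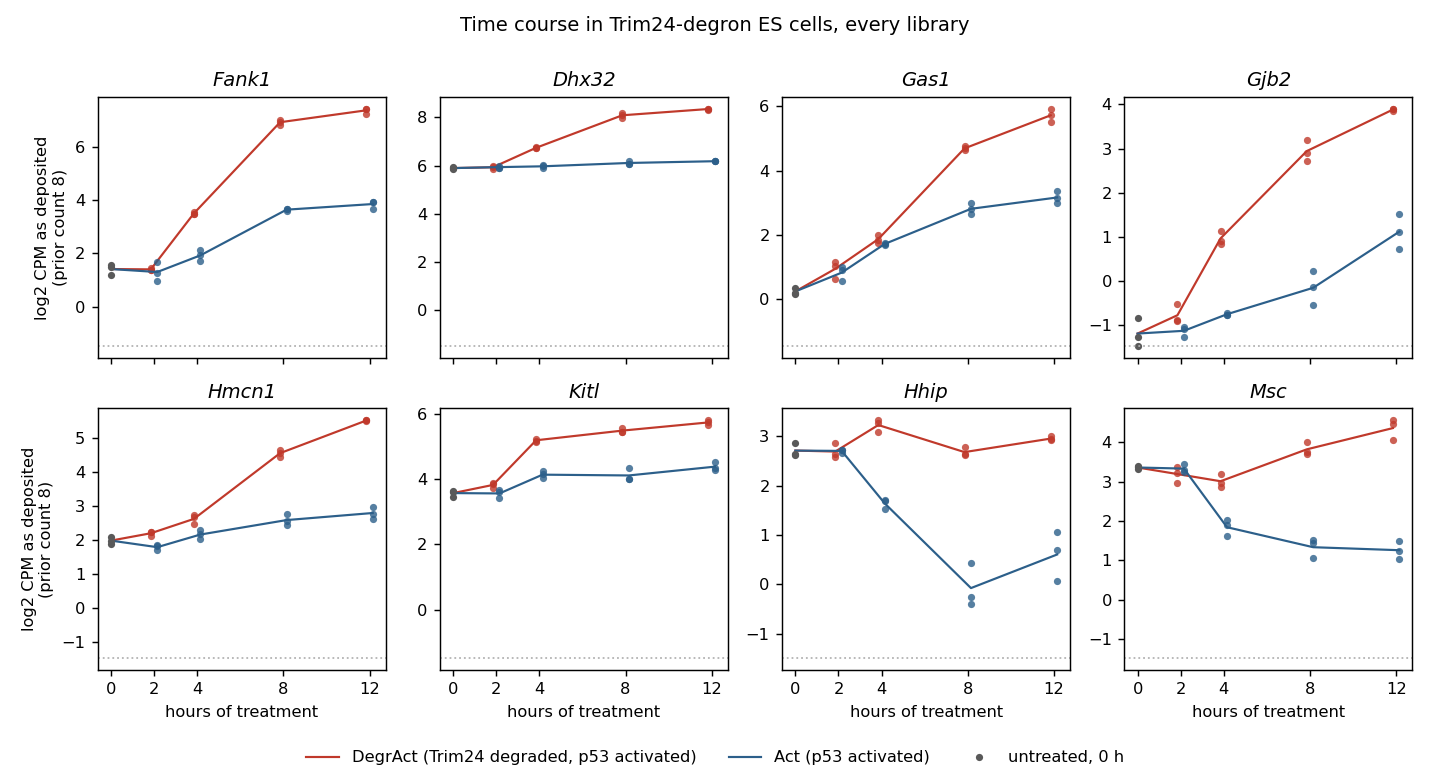
Log2 CPM as deposited (prior count 8) of the 8 genes against hours of treatment in the time course, with every library as a point and lines through group means, DegrAct cells in red, Act cells in blue and untreated cells at 0 h in grey. The dotted line is the value of a gene with no reads, and in the Hhip and Msc panels the Act line lies below the 0 h points from 4 h on, whereas at 12 h the DegrAct line lies above them.

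Fank1 had the largest growth of the difference between 2 and 12 h among all 18107 genes tested. In DegrAct cells Fank1 stood at 2.22, 2.38 and 2.23 CPM at 2 h, at 10.9, 11.3 and 10.6 CPM at 4 h, at 112, 122 and 127 CPM at 8 h and at 150, 172 and 171 CPM at 12 h. Its levels in Act cells were 1.61, 2.02 and 2.81 CPM at 2 h, 4.01, 3.45 and 2.91 CPM at 4 h, 12.3, 11.7 and 12.2 CPM at 8 h and 14.9, 15.0 and 12.3 CPM at 12 h, and untreated cells at 0 h had 1.89, 2.60 and 2.45 CPM. The groups overlapped at 2 h and were apart from 4 h on. The ratio of the DegrAct to the Act mean was 3.16 at 4 h, 9.97 at 8 h and 11.7 at 12 h, and the log2 difference 0.10 ± 0.18 at 2 h, 1.58 at 4 h, 3.28 at 8 h and 3.51 at 12 h (SE).

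Dhx32 followed its neighbour without Trim24 and stayed close to its 0 h level with it. The DegrAct libraries of Dhx32 had 61.2, 58.4 and 63.2 CPM at 2 h, 108, 107 and 105 CPM at 4 h, 252, 276 and 291 CPM at 8 h and 318, 331 and 330 CPM at 12 h. The Act libraries had 59.9, 63.8 and 59.7 CPM at 2 h, 65.1, 62.5 and 60.1 CPM at 4 h, 66.2, 67.7 and 73.0 CPM at 8 h and 72.1, 72.2 and 73.1 CPM at 12 h, beside 60.9, 59.2 and 58.2 CPM at 0 h. Act cells at 12 h thus lay 1.22 times above 0 h, without overlap, whereas DegrAct cells lay 5.49 times above it. The log2 difference between DegrAct and Act cells was −0.01 at 2 h, 0.77 at 4 h, 1.98 at 8 h and 2.17 at 12 h. Its growth of 2.17 ± 0.09 (SE) ranked 9 among all genes.

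Beyond Fank1 and Dhx32, Adam12, a membrane metalloprotease gene next to Fank1, averaged 3.62 ± 0.30 CPM in DegrAct cells and 1.21 ± 0.37 CPM in Act cells at 12 h (SD, n = 3 each). Bccip, which overlaps the end of Dhx32, averaged 50.9 ± 2.39 CPM in DegrAct cells and 54.3 ± 8.54 CPM in Act cells at 12 h, with overlapping libraries.

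Gas1 and Hmcn1 were late. Gas1 stood in DegrAct cells at 1.16, 1.68 and 1.87 CPM at 2 h, at 2.99, 3.64 and 3.21 CPM at 4 h, at 26.6, 24.4 and 25.5 CPM at 8 h and at 52.4, 60.9 and 45.5 CPM at 12 h. Act cells had 1.61, 1.52 and 1.11 CPM of Gas1 at 2 h, 2.90, 2.99 and 2.85 CPM at 4 h, 7.48, 5.84 and 6.66 CPM at 8 h and 8.49, 7.52 and 9.86 CPM at 12 h, and 0 h cells 0.897, 0.785 and 0.759 CPM. Gas1 was therefore above its 0 h libraries in all Act libraries from 2 h on, and the DegrAct libraries were clearly apart from Act libraries at 8 and 12 h. The log2 difference was 0.12 at 2 h, 0.15 at 4 h, 1.89 at 8 h and 2.57 at 12 h.

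Hmcn1 in DegrAct cells was at 4.32, 3.95 and 4.37 CPM at 2 h, 5.14, 6.23 and 5.99 CPM at 4 h, 23.3, 21.5 and 24.7 CPM at 8 h and 45.5, 45.7 and 45.1 CPM at 12 h. In Act cells it was at 2.88, 3.21 and 3.17 CPM at 2 h, 3.67, 4.48 and 4.17 CPM at 4 h, 5.08, 6.36 and 5.50 CPM at 8 h and 5.79, 7.52 and 6.47 CPM at 12 h, with 3.84, 3.34 and 3.56 CPM at 0 h. DegrAct libraries lay above Act libraries at every time, by 1.37 times at 2 h, 1.41 at 4 h, 4.10 at 8 h and 6.89 at 12 h. The step from 2 to 4 h added 0.05 to the log2 difference of Hmcn1 and 0.03 to that of Gas1, and the step from 4 to 8 h added 1.51 and 1.74.

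Gjb2 was near the limit of detection before treatment, with 4, 0 and 1 reads in the 0 h libraries. Its DegrAct libraries had 0.333, 0.174 and 0.178 CPM at 2 h, 1.52, 1.43 and 1.84 CPM at 4 h, 6.26, 7.16 and 8.74 CPM at 8 h and 14.4, 14.6 and 14.1 CPM at 12 h. The Act libraries had 0.111, 0.127 and 0.0586 CPM at 2 h (2, 3 and 1 reads), 0.241, 0.230 and 0.228 CPM at 4 h, 0.321, 0.801 and 0.555 CPM at 8 h and 1.30, 1.79 and 2.49 CPM at 12 h. All DegrAct libraries of Gjb2 lay above all Act libraries at every time, at 2 h on 3 to 6 reads in DegrAct and 1 to 3 reads in Act libraries. The ratio of means was 2.32 at 2 h, 6.84 at 4 h, 13.2 at 8 h and 7.74 at 12 h, so that Act cells gained on DegrAct cells between 8 and 12 h, and the log2 difference was 0.35 at 2 h, 1.72 at 4 h, 3.10 at 8 h and 2.77 at 12 h.

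Kitl had the smallest difference of the 8 genes at 12 h, and most of it was present at 4 h. Its DegrAct libraries stood at 14.4, 14.2 and 13.0 CPM at 2 h, 36.2, 37.7 and 35.2 CPM at 4 h, 43.6, 43.6 and 47.0 CPM at 8 h and 53.8, 50.5 and 55.9 CPM at 12 h. Act libraries stood at 10.4, 11.8 and 12.4 CPM at 2 h, 16.03, 18.6 and 17.4 CPM at 4 h, 19.8, 15.7 and 15.8 CPM at 8 h and 22.6, 20.1 and 19.2 CPM at 12 h, and 0 h libraries at 12.2, 10.7 and 11.9 CPM. The groups were apart at every time, and the log2 difference was 0.26 at 2 h, 1.06 at 4 h, 1.38 at 8 h and 1.36 at 12 h. Its growth of 1.10 ranked 136 of 18107, between Tmem200c (1.10) just above and Mylip (1.09) just below.

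Hhip and Msc were lower than at 0 h in Act cells from 4 h on, and above it in DegrAct cells at 12 h. Hhip in DegrAct cells was at 5.87, 6.85 and 5.58 CPM at 2 h, 8.08, 9.29 and 9.62 CPM at 4 h, 5.83, 6.53 and 5.75 CPM at 8 h and 7.29, 7.62 and 7.18 CPM at 12 h. In Act cells it was at 6.26, 6.24 and 5.92 CPM at 2 h, 2.90, 2.87 and 2.51 CPM at 4 h, 0.481, 0.990 and 0.404 CPM at 8 h and 1.25, 1.74 and 0.689 CPM at 12 h, against 5.78, 5.89 and 6.89 CPM at 0 h. Act cells at 8 h thus held 10.1% of the 0 h mean of Hhip, and DegrAct cells 97.6%. The log2 difference between DegrAct and Act cells of Hhip was −0.01 at 2 h, 1.58 at 4 h, 2.75 at 8 h and 2.34 at 12 h.

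Msc in DegrAct cells was at 10.03, 7.43 and 9.01 CPM at 2 h, 8.71, 7.50 and 6.93 CPM at 4 h, 12.6, 13.2 and 15.6 CPM at 8 h and 21.6, 23.2 and 16.3 CPM at 12 h. Act cells had 9.47, 10.6 and 9.03 CPM of Msc at 2 h, 3.72, 3.33 and 2.68 CPM at 4 h, 1.71, 2.36 and 2.47 CPM at 8 h and 1.98, 2.47 and 1.70 CPM at 12 h, and 0 h cells 10.2, 9.91 and 9.58 CPM. Msc was thus lower than at 0 h in both groups at 4 h, and by 12 h DegrAct cells lay at 206% and Act cells at 20.7% of the 0 h mean. The log2 difference was −0.14 at 2 h, 1.17 at 4 h, 2.49 at 8 h and 3.10 at 12 h, and its growth ranked next to that of Fank1.

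**Figure D3:**
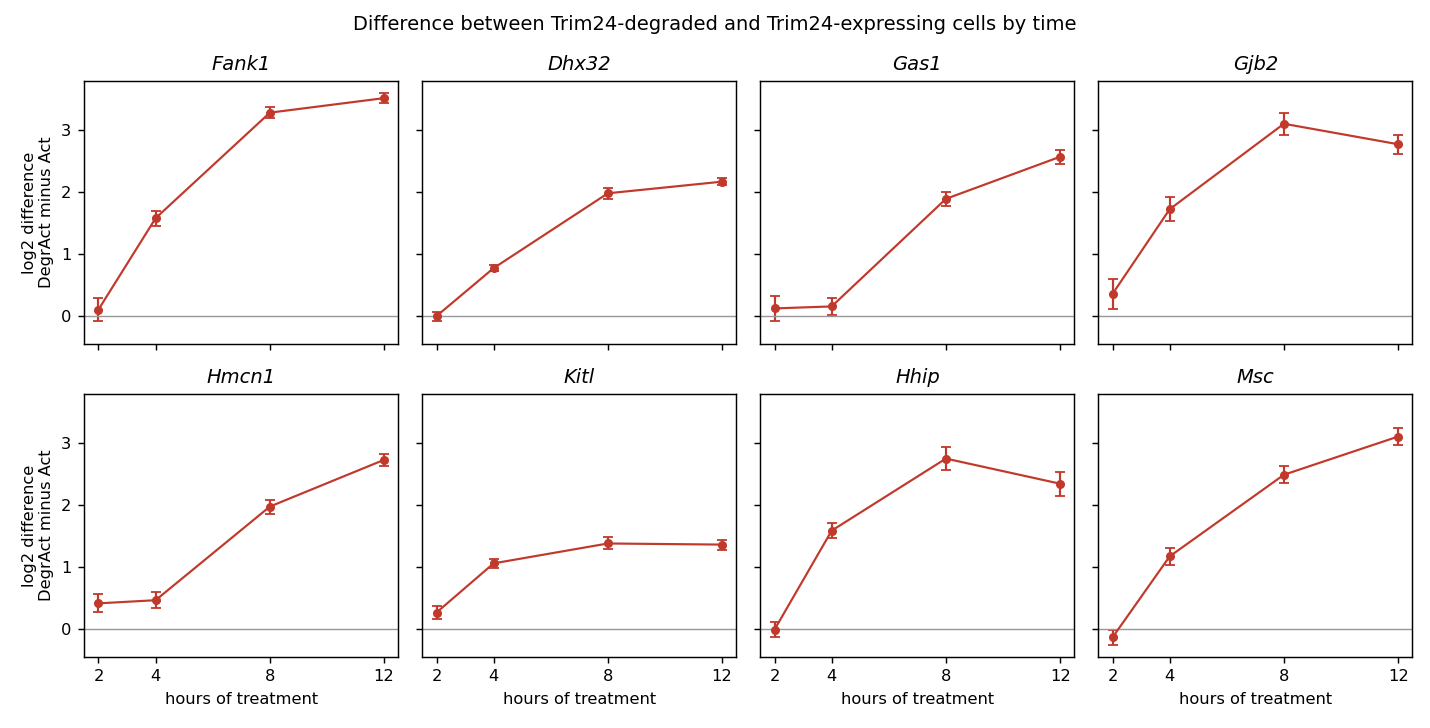
Log2 difference between DegrAct and Act cells of the time course (limma estimate, bars ± 1 SE) against hours of treatment for each of the 8 genes, all panels on the same axes. The differences lie between −0.14 and 0.41 at 2 h and between 1.36 and 3.51 at 12 h, and those of Gjb2, Kitl and Hhip are smaller at 12 h than at 8 h.

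Between consecutive times the difference widened at every step for 5 of the 8 genes. From 8 to 12 h it narrowed by 0.41 for Hhip, 0.33 for Gjb2 and 0.02 for Kitl, on the log2 scale. Over all genes, 199 had a growth above 1 between 2 and 12 h, and 109 of these widened at every step. Cfap206, a cilium gene that is no member, ranked 5 with a growth of 2.40, between Gjb2 (2.42) and Hhip (2.36). With limma-voom the growth of Gjb2 was 2.02. At 12 h the 6 primitive endoderm markers summed to 39.4 to 45.0 CPM in DegrAct cells and to 21.7 to 24.2 CPM in Act cells, none of them at 0, and the 8 fibroblast markers to 60.4 to 64.5 CPM in DegrAct cells and 59.7 to 69.2 CPM in Act cells. The trophoblast, epithelial and skeletal muscle lists were lower in DegrAct cells at 12 h, without overlap. The 5 trophoblast markers summed to 15.8 to 18.7 CPM in DegrAct cells and 26.6 to 32.0 CPM in Act cells, the 4 epithelial markers (keratins and Trp63) to 113 to 127 and 135 to 159 CPM, and the 5 skeletal muscle markers to 147 to 158 and 171 to 183 CPM, none at 0. The 5 spermatid and spermatocyte markers overlapped, at 5.51 to 7.76 CPM in DegrAct cells and 6.73 to 7.43 CPM in Act cells. Of these, Tnp1 was at 0 in both groups. The part of these markers in the differences at 12 h was not tested.

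By the mean of the z-scored log2 levels of the 8 genes over the 27 time-course libraries, the other genes with the most similar profile among 18121 were Raver2 (Pearson r = 0.94), Cachd1 (0.94), Fras1 (0.94), Caln1 (0.93) and Slain1 (0.93). These libraries share their groups and were used to choose the members, so that the correlations are a description. Of the members, Dhx32 lay closest to the mean profile (0.99) and Hhip (0.43) and Msc (0.65) farthest from it. Raver2, which encodes an RNA-binding protein, averaged 214 CPM in DegrAct cells and 47.1 CPM in Act cells at 12 h. In the RING-domain experiment, which had no part in these correlations, Raver2 (1.42 ± 0.05, SE, limma adjusted p = 1.92e-21) and Fras1 (1.09 ± 0.14, limma adjusted p = 2.52e-07) rose with Trim24 loss, and Cachd1 (−0.10), Caln1 (0.56) and Slain1 (0.747, limma adjusted p = 1.73e-08, just under the minimum difference) did not pass.

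The RING-domain experiment repeated DegrAct and Act cells at 4 h in libraries that the rule of the choice did not use. Earlier results of these data were known at the choice. There 6 of the 8 genes were higher in DegrAct cells, all but Gas1 and Hmcn1, beside 1.01% of the 16313 genes tested (limma, Benjamini-Hochberg adjusted p under 0.01 and a log2 difference of at least 0.75). The median log2 difference of the members was 1.40, beside 0.02 over all genes. The 4 epithelial markers summed to 16.1 to 19.1 CPM in these DegrAct cells and to 7.78 to 10.3 CPM in Act cells, none at 0, and the 5 trophoblast markers to 17.3 to 18.6 and 20.6 to 23.8 CPM, both without overlap. Of the epithelial markers, Krt5 (9.63 to 12.6 CPM in DegrAct cells and 3.16 to 4.44 CPM in Act cells) and Krt15 were higher without overlap, and Trp63 (0.110 to 0.319 and 0.156 to 0.760 CPM) overlapped. The part of these markers in the differences was not tested. The experiment has no later time, so that the growth of the difference was measured in the time course only.

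Fank1 had 7.18, 7.27, 8.95 and 7.66 CPM in DegrAct cells and 2.27, 1.80, 2.60 and 2.46 CPM in Act cells, without overlap (log2 difference 1.63 ± 0.13, SE, limma adjusted p = 1.88e-12). Dhx32 had 133, 129, 132 and 123 CPM in DegrAct cells and 69.2, 70.5, 68.4 and 66.4 CPM in Act cells (0.91 ± 0.05, limma adjusted p = 9.32e-17), again without overlap. Both neighbours thus rose with Trim24 loss. Kitl had 28.7, 26.9, 31.9 and 31.7 CPM in DegrAct cells and 10.8, 11.2, 12.3 and 12.7 CPM in Act cells, and its rise was 1.31 ± 0.08 (limma adjusted p = 6.97e-16). Gjb2 had 1.98, 1.91, 1.79 and 1.33 CPM in DegrAct cells and 0.207, 0.0973, 0.0520 and 0.585 CPM in Act cells, the last from 10 reads and the others from 1 to 4 reads. No DegrAct library of Gjb2 reached down to an Act library (1.90 ± 0.22, limma adjusted p = 3.8e-08). Without the Act library of 10 reads Gjb2 was still called (2.15).

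Hhip and Msc, which were lower with activation in Act cells of the time course, were also higher in DegrAct cells here. Hhip had 7.50, 6.79, 6.28 and 6.59 CPM in DegrAct cells and 2.17, 2.67, 1.77 and 2.22 CPM in Act cells (1.49 ± 0.13, limma adjusted p = 3.05e-11). Msc had 7.27, 7.59, 8.29 and 8.86 CPM in DegrAct cells and 1.96, 2.19, 2.44 and 2.16 CPM in Act cells (1.71 ± 0.12, limma adjusted p = 1.27e-13). Neither gene had overlapping libraries.

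Gas1 and Hmcn1, the late genes, did not pass at 4 h. Gas1 had 3.35, 3.38, 3.91 and 4.24 CPM in DegrAct cells and 2.64, 2.87, 2.81 and 1.93 CPM in Act cells, without overlap, and the log2 difference of 0.49 ± 0.14 (limma adjusted p = 0.00996) was under the minimum of 0.75. Hmcn1 had 4.31, 4.65, 3.87 and 3.90 CPM in DegrAct cells and 5.12, 5.06, 4.31 and 4.45 CPM in Act cells, with overlap (−0.17, 95% interval −0.41 to 0.07, limma adjusted p = 0.345). In the time course the Hmcn1 difference at 4 h was 0.46 ± 0.13 (SE). The tables of the experiments were normalized apart, and the difference between them was not tested.

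**Figure D4:**
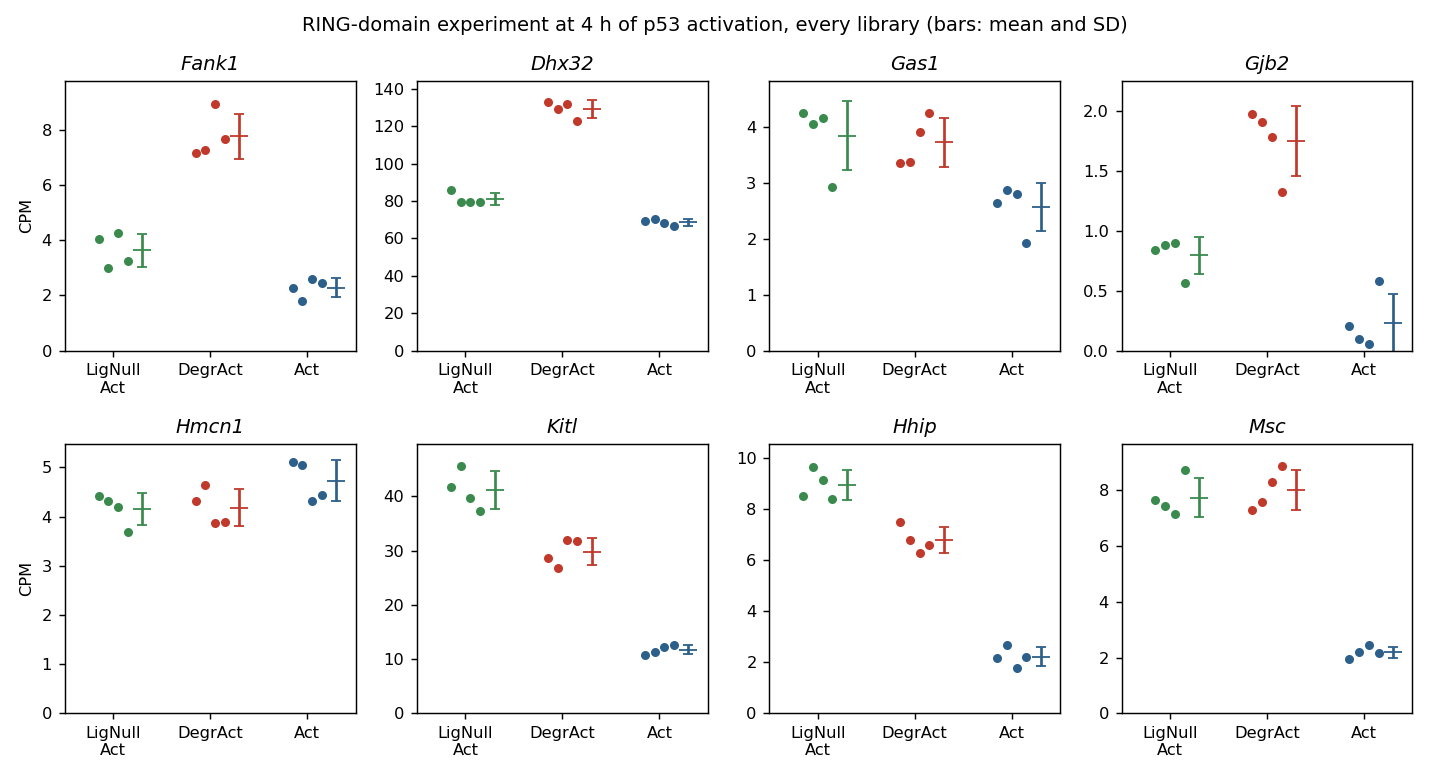
CPM of the 8 genes in every library of the RING-domain experiment at 4 h of p53 activation, LigNull Act cells in green, DegrAct cells in red and Act cells in blue, with the mean and SD beside the points (the lower bar of Gjb2 in Act cells is cut at 0). Kitl and Hhip were highest in LigNull Act cells, Fank1, Dhx32 and Gjb2 were highest in DegrAct cells, and the Hmcn1 groups overlap.

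The 8 genes did not move alike in the LigNull line, whose RING mutation cannot be told apart from the effect of the edited line. In LigNull Act cells 4 of 8 genes (Hhip, Kitl, Msc and Gjb2) were higher than in Act cells, beside 4.67% of the 17100 genes tested. Against DegrAct cells, 2 of 8 genes (Fank1 and Gjb2) were lower in LigNull Act cells, beside 1.85% of 16674 genes, and 0 were higher, beside 4.83% (0 with limma-voom, and 2, Kitl and Hhip, at an unadjusted p under 0.05). The 2 comparisons share the LigNull libraries, and the first shares the Act libraries with the comparison above.

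Hhip had 8.53, 9.66, 9.15 and 8.39 CPM in LigNull Act cells, above every DegrAct and Act library (1.87 ± 0.13 over Act cells, limma adjusted p = 8e-14, and 0.38 ± 0.10 over DegrAct cells, adjusted p = 0.00166, under the minimum difference). Kitl had 41.7, 45.6, 39.7 and 37.3 CPM, likewise above every library of the other groups (1.77 ± 0.08 over Act cells, limma adjusted p = 5.49e-19, and 0.46 ± 0.07 over DegrAct cells, adjusted p = 3.11e-06). Msc had 7.64, 7.42, 7.15 and 8.72 CPM, within the range of DegrAct cells (1.67 ± 0.13 over Act cells, limma adjusted p = 1.04e-12). Its difference from DegrAct cells was −0.05, with a 95% interval of −0.25 to 0.16.

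Fank1 had 4.05, 3.01, 4.25 and 3.25 CPM in LigNull Act cells, between the other groups without overlap (0.60 ± 0.15 over Act cells, under the minimum difference, limma adjusted p = 0.00231, and −1.03 ± 0.12 against DegrAct cells, adjusted p = 2.05e-08). Dhx32 had 86.0, 79.7, 79.5 and 79.3 CPM, also between them (0.24 ± 0.06 over Act cells, limma adjusted p = 0.00115, and −0.67 ± 0.05 against DegrAct cells, adjusted p = 7.96e-12, both under the minimum). Gjb2 had 0.839, 0.883, 0.900 and 0.566 CPM, from 12 to 18 reads, and its lowest library lay within the range of Act cells (1.03 ± 0.25 over Act cells, limma adjusted p = 0.00126, and −0.87 ± 0.18 against DegrAct cells, adjusted p = 0.000148). The rise of Gjb2 over Act cells was not called when limma was run without trend and robust moderation (adjusted p = 0.015).

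Gas1 had 4.24, 4.05, 4.15 and 2.92 CPM in LigNull Act cells, within reach of DegrAct cells (0.04, 95% interval −0.23 to 0.30) and above all Act libraries (0.53 ± 0.15, limma adjusted p = 0.00663, under the minimum). Hmcn1 had 4.43, 4.31, 4.20 and 3.68 CPM, overlapping both groups (−0.17, 95% interval −0.43 to 0.08, over Act cells). The LigNull libraries also stood apart in marker genes. The 6 primitive endoderm markers summed to 51.7 to 60.5 CPM in LigNull Act cells, 5.55 to 7.12 CPM in DegrAct cells and 6.86 to 7.31 CPM in Act cells, and the 8 fibroblast markers to 47.6 to 54.3, 32.1 to 33.3 and 27.4 to 32.1 CPM, with no marker at 0 in any of these groups. Trophoblast markers summed to 25.4 to 29.3 CPM and skeletal muscle markers to 45.8 to 55.7 CPM in LigNull Act cells, the muscle markers beside 64.1 to 66.6 CPM in DegrAct and 65.0 to 69.5 CPM in Act cells. The part of these markers in the LigNull differences was not tested. Trim24 mRNA averaged 97.9 ± 1.89 CPM in LigNull Act cells, 131 ± 4.52 CPM in DegrAct cells and 123 ± 3.48 CPM in Act cells (SD, n = 4 each).

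Without doxorubicin, none of the 8 genes passed the thresholds after 4 h of dTAG13. Later times were not measured without doxorubicin, so that this does not bear on differences that appeared after 4 h. In Degr against Unt cells 0 of 8 were called, beside 0.0781% of the 15360 genes tested, and 0 had an unadjusted p under 0.05 (limma, with 0 called by limma-voom). The log2 differences ran from −0.05 (Fank1) to 0.18 (Hmcn1), and the ranges of the groups overlapped for each gene. Fank1 had 1.80, 1.28 and 1.76 CPM in Degr cells and 1.54, 1.59 and 1.88 CPM in Unt cells, and the 95% interval of its difference was −0.40 to 0.30. Dhx32 had 55.2, 50.2 and 54.6 CPM in Degr cells and 50.9, 52.0 and 50.3 CPM in Unt cells (95% interval −0.07 to 0.20). Kitl had 11.04, 10.8 and 8.97 CPM in Degr cells and 9.45, 10.2 and 9.96 CPM in Unt cells (−0.16 to 0.25).

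Msc averaged 5.19 ± 0.97 CPM in Degr cells and 5.08 ± 0.13 CPM in Unt cells, and Hhip 1.04 ± 0.28 and 0.974 ± 0.28 CPM (SD, n = 3 each). Hmcn1 had 40 to 69 reads in Degr and 36 to 62 reads in Unt libraries. Gas1 and Gjb2 rested on few reads in these libraries. There were 7 to 12 and 4 to 15 reads of Gas1 and 2 to 7 and 2 to 4 reads of Gjb2 in Degr and Unt libraries. The 95% intervals of Gas1 (−0.50 to 0.41) and Gjb2 (−0.36 to 0.58) are on the scale with a prior count of 8, which compresses changes at so few reads. A modest change of either gene could therefore have gone undetected at this depth. Primitive endoderm markers summed to 509 to 573 CPM in Degr cells and 534 to 561 CPM in Unt cells, and fibroblast markers to 176 to 201 and 187 to 211 CPM, with Postn at 0 in Degr cells, so that these dTrim24 cells stood apart from the dTrim24 cells at 0 h of the time course (49.4 to 51.9 and 29.7 to 31.0 CPM). Levels of the 8 genes in these libraries were therefore not set against those of the time course.

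In wild-type cells, with untagged Trim24, 4 h of doxorubicin raised 1 of the 8 genes, beside 7.99% of the 16448 genes tested. Gas1 had 1.67 and 1.41 CPM in wt Act cells and 0.589 and 0.540 CPM in wt Unt cells (1.04 ± 0.22, limma adjusted p = 1.35e-05). The call of Gas1 was lost without the wt Act library at 1.67 CPM (0.94, limma adjusted p = 0.0419) and under quantile normalization (0.73). Msc had 12.8 and 12.7 CPM in wt Act cells and 19.2 and 20.1 CPM in wt Unt cells (−0.61 ± 0.11, limma adjusted p = 1.08e-07, under the minimum difference), and 0 members were called lower, beside 2.27% of genes (0 with limma-voom, and 1, Msc, at an unadjusted p under 0.05). Kitl had 14 and 12.8 CPM in wt Act cells and 9.45 and 8.45 CPM in wt Unt cells (0.56 ± 0.12, limma adjusted p = 9.07e-06, also under the minimum). For Msc and Kitl the libraries did not overlap.

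Fank1 had 3.31 and 2.98 CPM in wt Act cells and 3.25 and 3.06 CPM in wt Unt cells (95% interval −0.32 to 0.31), and Dhx32 63.9 and 61.0 CPM in wt Act cells and 59.3 and 62.0 CPM in wt Unt cells (−0.13 to 0.21). Hhip had 1.48 and 1.66 CPM in wt Act cells and 2.11 and 1.53 CPM in wt Unt cells (−0.54 to 0.22), with overlap. Hmcn1 had 3.12 and 3.48 CPM in wt Act cells and 2.97 and 3.24 CPM in wt Unt cells, also with overlap, and Gjb2 rested on 11 and 8 reads in wt Act and 7 and 6 reads in wt Unt libraries. In the same comparison Mdm2 rose by 1.86 ± 0.09 and Cdkn1a by 2.16 ± 0.10 (limma adjusted p = 2.67e-95 and 2.33e-110), which checks the wt Act label.

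**Figure D5:**
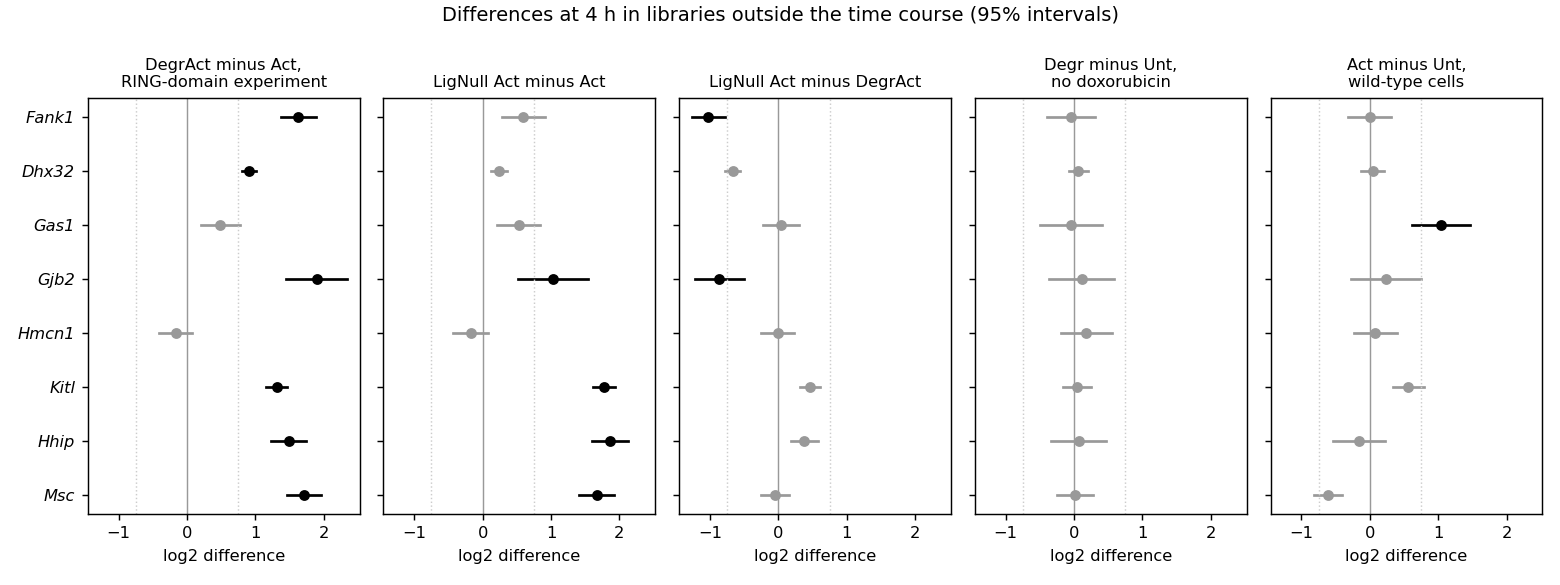
Log2 differences of the 8 genes in the comparisons outside the time course (points, limma estimates, with 95% intervals as lines), in the RING-domain experiment at 4 h, in uninduced cells and in wild-type cells. Black marks genes past the thresholds, grey the others, and the dotted lines stand at −0.75 and 0.75, and the uninduced panel holds no black point.

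Most genes of the families of the members did not pass the same test between DegrAct and Act cells of the RING-domain experiment, in which 1.01% of all genes tested were higher and 0.135% lower. Of 19 other Hedgehog pathway genes 18 were tested in the RING-domain experiment, and 0 passed between DegrAct and Act cells (limma, median −0.11, beside 0.02 over all genes, while before adjustment 2 higher and 4 lower genes had p under 0.05). In LigNull Act against Act cells 1 of these 18 passed, Boc, a Hedgehog co-receptor like Gas1 (1.09 ± 0.12, limma adjusted p = 4.67e-09), beside 4.67% of all genes higher and 2.28% lower. The median of the list there was −0.23, beside −0.02 over all genes, and before adjustment 2 higher and 10 lower genes had p under 0.05. In the time course at 12 h, 2 of the 18 were past the thresholds, the receptor gene Ptch1 (0.81) and Boc (0.79), beside 2.7% of all genes. In wild-type cells Ptch1 fell by 0.96 with activation, and Scube3 and Dhh rose by 1.02 and 0.99.

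Of the 19 other connexins, 13 were tested in DegrAct against Act cells of the RING-domain experiment, and 1 rose, Gjd4 (1.18 ± 0.20, limma adjusted p = 4.07e-05). Of the connexin genes that flank Gjb2 at 40499 and 18600 bases, Gja3 was tested there and not called, and Gjb6 was under the filter on low levels. Of 11 other class III receptor kinase genes and their ligands, all tested, 0 passed between DegrAct and Act cells (limma, while before adjustment 1 higher and 3 lower genes had p under 0.05), whereas Kitl itself rose. In LigNull Act cells Pdgfra and Csf1r were higher than in Act cells (2.46 and 2.05, limma adjusted p = 1.33e-21 and 3.32e-10), and Pdgfra is also one of the fibroblast markers given above. Of the other lists in that comparison, 1 of 15 connexins (Gjd4) and 3 of 17 bHLH and Id genes (Tcf23, Tcf24 and Id4) were higher. So were 3 of 13 matrix genes (Fras1, Frem2 and Efemp2), and 1 of 15 helicases (Dhx58) was lower.

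Of 17 bHLH and Id genes tested beside Msc, 1 rose and 1 fell with Trim24 loss in the RING-domain experiment. These were Tcf24 (1.04 ± 0.13, limma adjusted p = 1.83e-07) and Id1 (−0.89 ± 0.09, adjusted p = 1.45e-09). Of 13 hemicentin, fibulin and related matrix genes tested beside Hmcn1, 1 rose, Fras1 (1.09 ± 0.14, limma adjusted p = 2.52e-07), which was also among the genes with the most similar time profile. Hmcn2, the closest relative of Hmcn1, rose in wild-type cells with activation (1.79 ± 0.12, limma adjusted p = 1.06e-51). Of the 15 other DEAH-box helicase genes, 0 passed with Trim24 loss in the RING-domain experiment or at 12 h of the time course (limma, while before adjustment 3 higher and 1 lower genes had p under 0.05 in the RING-domain experiment). In uninduced cells 0 genes of the 6 lists passed (limma). At an unadjusted p under 0.05 there were 3 higher in the Hedgehog list and 3 lower among connexins. There were also 1 higher among bHLH and Id genes and 1 lower among matrix genes.

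Around Fank1 and Dhx32, Bccip rose less than the minimum difference with Trim24 loss in the RING-domain experiment (0.28 ± 0.05, limma adjusted p = 2.72e-05), as did Uros, a heme synthesis gene on the far side of Bccip (0.45 ± 0.08, adjusted p = 7.85e-05). Adam12 averaged 0.580 ± 0.17 CPM in DegrAct cells and 0.337 ± 0.17 CPM in Act cells (SD, n = 4 each) and did not pass (limma adjusted p = 0.145). At 4 h of the time course Adam12 was past the thresholds (log2 difference 1.465 ± 0.216, SE). It was also higher in LigNull Act than in Act cells (0.799 ± 0.242, limma adjusted p = 0.00884). The difference between the experiments was not tested.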

How the data were processed

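RNA-seq libraries (ribosomal RNA-depleted, stranded total RNA) were made from 49 samples of mouse ES cells in 16 groups over 4 tables, each normalized apart. Per the labels and the study's methods, the authors demultiplexed with bcl2fastq (2.17 or 2.20), aligned to mm10 with STAR, placed reads with up to 20 matches at random at 1 of them, and counted genes of GENCODE M25 with featureCounts. The deposited values are log2 CPM with TMM normalization and a prior count of 8, made by the authors with edgeR. The methods give default settings for this counter, which by default does not use strand.

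Whole reads were recovered from the deposited log2 values (100% within 0.01 of a whole number), and CPM without the prior count were computed from them. Differences were tested within a table on the log2 values with limma 3.58.1 (R 4.3.3, trend and robust moderation, Benjamini-Hochberg adjustment over all genes tested). Low genes were left out: a gene stayed in when its log2 value exceeded that of a gene with no reads by 0.5 (0.148 CPM) in a number of libraries no smaller than the size of the smaller group. A call required a log2 difference of 0.75 or more in either direction and an adjusted p under 0.01. The only groups compared are those named in the report, with no batch term. Scripts were tested on simulated data. Tables were handled with Python 3.11.15, pandas 2.3.3 and numpy 2.4.6. Promoter windows were taken from RefSeq (GRCm38.p6) and gene models from GENCODE M21.

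The members, gene lists, marker lists and tests were chosen with earlier results of these data known. The genes named beside the members are those of the fixed lists past the thresholds (at most the 4 of largest change per list), the annotated neighbours of Fank1 and Dhx32, the 5 genes with the profile most like the mean of the members, and genes next to the members in the order of growth, the last of these chosen after their values were seen. Alternatives were another filter, no filter, quantile or median scaling, a prior count of 1, limma-voom on the recovered reads, limma without trend and robust moderation, all groups in one fit, a replicate block, an adjusted p under 0.05 with no minimum difference, and each library left out. Replicate numbers showed little pairing of the libraries, by the correlation of same-numbered deviations from the group means. This correlation ran from −0.364 to 0.383 in the time course (median −0.026), where 83 of 108 pairs did not exceed 0.1. It ran from −0.098 to 0.163 in the RING-domain experiment (median 0.058) and from 0.013 to 0.082 in uninduced cells (median 0.019). For wild-type cells it was 0.09. The value for libraries of unlike number there, −0.09, follows from it, since each wild-type group held 2 libraries. P-values measure the spread between the libraries of a group.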

Additional observations from a re-analysis of the deposited data

Results flagged for a closer look

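In LigNull Act cells, Dhx32 replicate 1 had 86.03 CPM and stood apart from the other 3 libraries (79.3 to 79.7 CPM). Without it the difference of Dhx32 from Act cells was 0.21, against 0.24 with it. Gas1 replicate 4 of LigNull Act cells had 2.923 CPM and stood below the other 3 (4.05 to 4.24 CPM). The check took 39 pairs of a gene and a group of 4 libraries. The genes were the members, Trim24, Mdm2, Cdkn1a, Bccip and Adam12, all in the RING-domain experiment, so that the pairs share libraries. In 2 pairs, those given here, a library stood that far from the rest, and chance gives about 1 in 20.

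Hmcn1 in Act cells was lower than at 0 h after 2 h, with a ratio of means of 0.861 and every Act library below every 0 h library. At 8 and 12 h it was higher in every library, with ratios of 1.58 and 1.84. The difference between the times was not tested, since the time course chose the gene.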

How the results depend on the processing

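The 8 differences of the time course were above 0 at 4, 8 and 12 h under every alternative and left-out library. Their median at 8 h was 2.343 with limma-voom and 2.34 with a prior count of 1 (2.23 as given), and the median growth 2.607 under quantile normalization (2.39 as given). With libraries left out in turn, the median ran from 0.07 to 0.173 at 2 h, 1.056 to 1.159 at 4 h, 2.158 to 2.3 at 8 h and 2.569 to 2.702 at 12 h. An adjusted p under 0.05 with no minimum difference called 7 members higher in LigNull Act than in Act cells. Over all genes it called 6516 of 17100 there, in either direction. Against DegrAct cells it called 2 members higher, and Fank1, Dhx32 and Gjb2 lower, beside 8059 of 16674 genes. For wild-type cells it called 2 members higher and 1 lower, beside 5927 of 16448 genes. In wild-type cells, quantile normalization called 0 members, and leaving out libraries gave 0 to 1.

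Small differences changed sign. Against DegrAct cells, LigNull Gas1 was −0.009 under quantile normalization and −0.012 to 0.15 with libraries left out, Hmcn1 0.01 under median centring and −0.041 to 0.045, and Msc −0.103 to 0.002. In uninduced cells, Msc was −0.003 under median centring, and left-out libraries gave −0.066 to 0.168 for Msc, −0.118 to 0.083 for Fank1, −0.255 to 0.145 for Gas1, −0.023 to 0.248 for Gjb2, −0.072 to 0.245 for Hhip and −0.004 to 0.141 for Kitl. In wild-type cells, Gjb2 was −0.05 and Hmcn1 −0.14 under quantile normalization, and left-out libraries gave −0.074 to 0.063 for Fank1 and −0.354 to 0.031 for Hhip. The cause was not tested.

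Counts over all genes moved more. Under an adjusted p under 0.05 with no minimum difference, they were 3648 (187 as given) for DegrAct against Act cells at 4 h of the RING-domain libraries, 6516 (1188) for LigNull against Act, 8059 (1114) for LigNull against DegrAct, 56 (12) in uninduced and 5927 (1688) in wild-type cells, and 132 (53), 1848 (186), 1893 (276) and 5265 (690) at 2, 4, 8 and 12 h, with 2266 (462) for the growth. Without the filter they were 0 in uninduced cells, 0 at 2 h and 116 at 4 h, and without trend and robust moderation 0 in uninduced cells and 23, 90 and 162 at 2, 4 and 8 h. Without wt Act replicate 1 the wild-type count was 676.

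With the replicate block, 6 members were called in the RING-domain experiment, 0 in uninduced and 1 in wild-type cells, and the median growth was 2.386, so that the block changed no call of a member. LigNull and the other groups share only replicate number 4, too few for a block there. Depth limits Gjb2 most: with a prior count of 1 its difference was 0.911 at 2 h and 2.55 at 4 h. With limma-voom the growth of Gjb2 was 2.021 (2.416 as given).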
